A study of Macaca mulatta with 24 samples.

Results

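The stromal WNT, R-spondin and BMP signals of the colon are described here by 9 genes: the R-spondins RSPO1, RSPO2 and RSPO3, the WNT ligands WNT2B and WNT5A, the WNT inhibitor SFRP1, the BMP antagonist GREM1 and the BMP ligands BMP4 and BMP5. The members were the listed genes, each taken with every probe that carried its name, which gave 14 probes out of 43603 on the array and 9 genes out of 14736 tested. The series tables name 11 of these probes, and 3 probes, for RSPO1 and RSPO3, were named through the LOC number the tables give for them and a RefSeq table. All 14 probes passed the filter on dim probes, and 12 were well above background on all 24 arrays.

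The colon came from 24 young-adult male rhesus macaques, with 1 array per animal. In total-body irradiation (TBI) the whole animal receives radiation, here a single uniform gamma dose from a cobalt-60 source. The groups were 4 unirradiated controls (sham-irradiated per the methods), 4 animals taken on day 4 after 6.7 Gy, 4 on day 4 after 7.4 Gy, 4 on day 7 after 6.7 Gy, 4 on day 7 after 7.4 Gy, 2 on day 12 after 6.7 Gy and 2 on day 12 after 7.4 Gy. The controls are labelled day 4 and served every day and dose, so the comparisons with control share them. A text label gives another last day than the sample labels, which were followed. The tissue was a whole piece of colon, so a signal from stroma, epithelium, muscle or blood cells is mixed in 1 value, and fewer cells of a type and less RNA per cell cannot be told apart.

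Crypts of the colon renew their epithelium from stem cells at the base. WNT ligands bind Frizzled receptors and keep these stem cells dividing, and R-spondins, secreted by stromal cells beneath the crypt, bind LGR receptors and protect Frizzled from removal, which strengthens the WNT signal. BMP ligands work against this and favour differentiation toward the crypt top. GREM1, made by fibroblasts and muscle near the crypt base, binds BMP ligands and keeps them from their receptors, while SFRP1 binds WNT ligands.

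Values are log2 signals relative to the 75th percentile of the same array, and a change is a difference of group means on that log2 scale. Calls needed both a Benjamini-Hochberg adjusted p under 0.05 in limma, adjusted over all probes tested, and a change of 2-fold or more. Levels of different probes are not compared, because each probe binds its target differently. Whether a group overlapped the controls is given as a description, and how many other probes of the array lay apart likewise was not counted. The 75th percentile lay between 550.7 and 963.6 intensity units, and each array had 66.8% to 85.0% of its probes above background. Of 8 genes listed for colon identity and epithelium, such as CDX2 and EPCAM, 6 were tested and each was above background on at least 1 array of every group. Controls all sat in array position 1 and all animals on day 4 after 7.4 Gy in position 2, so position and group cannot be fully told apart.

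On day 4, GREM1 and RSPO3 rose at both doses, and no other gene among the 9 was called. GREM1 stood 3.34-fold above control after 6.7 Gy and 4.86-fold after 7.4 Gy by its brightest probe, and RSPO3 stood 2.23-fold and 2.76-fold above. These calls were 3 of the 14 probes at each dose, all higher, beside 3.61% of all probes tested after 6.7 Gy and 7.03% after 7.4 Gy. By direction, 1.83% and 3.37% of all probes were called higher. The median change of the 9 genes was -0.09 after 6.7 Gy, with 4 genes above 0, and 0.75 after 7.4 Gy, with 7 above 0. The medians over all genes tested were -0.04 and -0.03.

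GREM1 has 3 probes on the array. With its brightest probe (A_01_P011235), the controls read 2.13, 1.37, 1.33 and 0.72. On day 4 the animals read 2.84, 3.54, 3.37 and 2.77 after 6.7 Gy, and 4.32, 3.40, 4.00 and 2.95 after 7.4 Gy. Every irradiated animal of day 4 lay above the highest control. The change was 1.74 ± 0.32 (SE, n = 4 and 4) after 6.7 Gy, with an adjusted p of 0.00319 in limma, and 2.28 ± 0.32 after 7.4 Gy, with an adjusted p of 0.000126.

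The second GREM1 probe (A_01_P1747056) gave the same picture. Controls read -0.85, -2.17, -1.73 and -2.17, against -0.32, 0.20, 0.31 and -0.03 after 6.7 Gy and 0.80, 0.07, 0.59 and 0.35 after 7.4 Gy. Again no animal of day 4 overlapped the controls. The changes were 1.76 ± 0.29 (SE, adjusted p = 0.00137, limma) and 2.18 ± 0.29 (adjusted p = 6.55e-05). The third probe (A_01_P1671846) was not called. It read between -3.13 and -1.96 in controls, between -2.38 and -1.35 after 6.7 Gy and between -1.87 and -1.44 after 7.4 Gy. All animals after 7.4 Gy lay above every control, and the 6.7 Gy group overlapped the controls. The changes were 0.63 ± 0.65 and 1.05 ± 0.65 (SE, limma adjusted p = 0.588 and 0.273). The SE pools all 7 groups, among them day 7 after 7.4 Gy, where 1 animal read 1.55 and the SD was 2.20. In controls and the day 4 groups the SDs were 0.53, 0.51 and 0.19. Over the 24 arrays the first and second probe had a Pearson correlation of 0.93, while the third correlated with them at 0.49 and 0.45, as a description over arrays that share groups.

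RSPO3 is the R-spondin for which the array has 2 probes. Its brighter probe (A_01_P018309) read -3.30, -4.14, -3.68 and -4.08 in controls. On day 4 it read -2.76, -1.72, -2.48 and -3.62 after 6.7 Gy and -2.21, -2.59, -2.01 and -2.53 after 7.4 Gy. All animals after 7.4 Gy exceeded every control, whereas after 6.7 Gy 1 animal lay within the control range. The changes were 1.16 ± 0.28 (SE, adjusted p = 0.0139, limma) and 1.46 ± 0.28 (adjusted p = 0.00128).

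The 6.7 Gy call of RSPO3 was not stable. Without replicate 2 of that group the change was 0.85 (limma adjusted p = 0.0421), below the 2-fold limit, and with slide as a block it was 0.96 (adjusted p = 0.0747). With another background correction (normexp on the spot median), RSPO3 changed by 0.55 after 6.7 Gy and by 0.74 after 7.4 Gy, both below 2-fold. The dimmer probe (A_01_P1746216) was above background in 1 control, 1 animal on day 4 after 6.7 Gy and 2 after 7.4 Gy, and its changes of 0.72 ± 0.49 and 0.84 ± 0.49 (SE) were not called and turned to -0.25 and -0.20 with normexp.

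**Figure D1:**
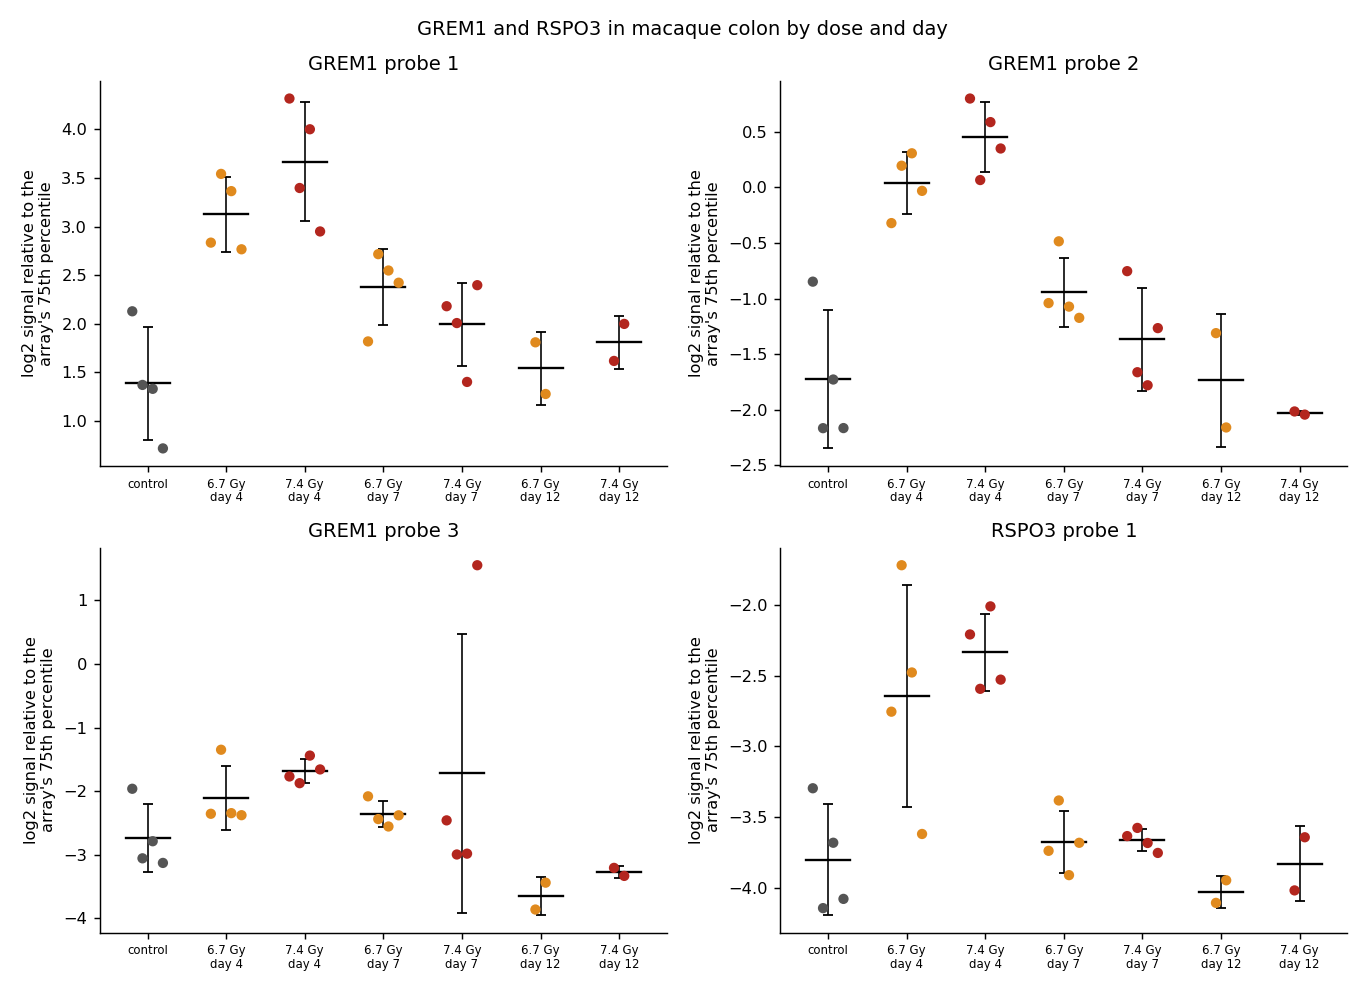
GREM1 (3 probes) and the brighter RSPO3 probe by dose and day; each point is 1 animal, the y axis is the log2 signal relative to the 75th percentile of the array, and bars are mean ± SD. On day 4 all 8 irradiated animals lie above every control with GREM1 probes 1 and 2, and GREM1 probe 3 has 1 animal at 1.55 on day 7 after 7.4 Gy far above the rest of its group.

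The other R-spondins were not called on day 4. RSPO2 read -1.03, -1.78, -1.25 and -1.93 in controls, -1.24, -1.79, -1.65 and -1.82 after 6.7 Gy, and -1.07, -0.35, -0.84 and -0.74 after 7.4 Gy. After 7.4 Gy all but 1 animal lay above the highest control, and the change was 0.75 ± 0.32 (SE, limma adjusted p = 0.102), against -0.12 ± 0.32 after 6.7 Gy. Scaling by spike-ins raised the 7.4 Gy change of RSPO2 to 1.03 (adjusted p = 0.0152), a call, and moved the median of all probes from -0.08 to 0.20. RSPO1 lay between -3.44 and -2.67 in controls, between -3.73 and -3.42 after 6.7 Gy and between -3.63 and -3.15 after 7.4 Gy. Its changes were -0.44 and -0.26, each with an SE of 0.36, and the irradiated ranges overlapped the control range.

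Of the WNT ligands, WNT2B, which signals through beta-catenin, read -3.89 to -3.08 in controls, -4.33 to -3.44 after 6.7 Gy and -4.50 to -3.03 after 7.4 Gy. Its changes of -0.09 and -0.17 (SE 0.27) were not called, with 95% intervals of -0.66 to 0.48 and -0.74 to 0.41. WNT5A, a ligand known mainly for signalling without beta-catenin, was near background: its probe was above background in 1 of 4 controls, 2 of 4 animals after 6.7 Gy and 3 of 4 after 7.4 Gy. The controls read -5.92, -7.60, -7.38 and -4.34, with an SD of 1.51 against at most 0.85 in any irradiated group. After 7.4 Gy it read -4.85, -5.27, -4.57 and -5.82, a change of 1.18 ± 0.54 (SE, limma adjusted p = 0.127), against 0.49 ± 0.54 after 6.7 Gy. That value depended on single arrays and on the background correction: without control replicate 4, the only control above background, it was 1.84 (adjusted p = 0.00953), and with normexp it was -0.06.

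SFRP1, the secreted inhibitor of WNT ligands, read 0.68, 0.69, 0.71 and 0.05 in controls. It read 0.74, 1.25, 0.85 and 0.24 after 6.7 Gy and 1.71, 1.48, 1.93 and 0.76 after 7.4 Gy. All animals after 7.4 Gy exceeded every control, the lowest of them by a small margin, while the 6.7 Gy group overlapped the controls. The change after 7.4 Gy was 0.94 ± 0.26 (SE, limma adjusted p = 0.0155), which passed the adjusted p but fell short of 2-fold at 1.91-fold, so SFRP1 was not called. Without replicate 4 of that group it was 1.17 (adjusted p = 0.00381), and spike-in scaling also took it past 2-fold, at 1.22. After 6.7 Gy the SFRP1 change was 0.23 ± 0.26.

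No probe of BMP4 or BMP5 was called on day 4. BMP4 by its brighter probe (A_01_P009348) read 0.95, 0.45, 1.04 and 1.14 in controls, 0.29, 0.62, 1.14 and 0.99 after 6.7 Gy, and 1.41, 0.94, 0.98 and 0.94 after 7.4 Gy. The groups overlapped, and the changes were -0.14 ± 0.19 and 0.17 ± 0.19 (SE). The second BMP4 probe (A_01_P1686406) read -0.67 to -0.39 in controls and -0.21 to 0.42 after 7.4 Gy without overlap, a change of 0.56 ± 0.18 (SE, limma adjusted p = 0.0306) or 1.47-fold, below the limit. The 2 BMP4 probes therefore differed in size after 7.4 Gy, and over the 24 arrays their correlation was 0.66. BMP5 changed by -0.22 ± 0.22 and 0.29 ± 0.22 (SE) with its brighter probe and by 0.23 ± 0.28 and 0.42 ± 0.28 with the other, with overlapping groups.

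**Figure D2:**
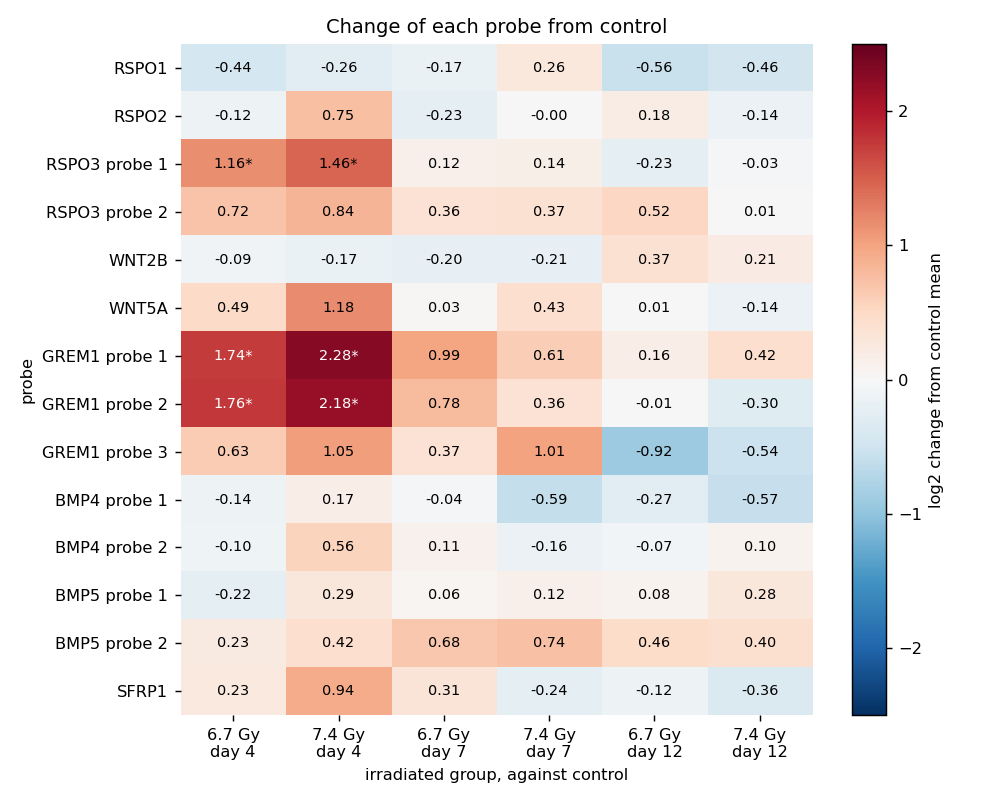
Log2 change from the control mean of each of the 14 probes (rows) in each irradiated group (columns); an asterisk marks a called change. The calls are GREM1 probes 1 and 2 and RSPO3 probe 1 on day 4, and no probe is called on day 7 or day 12.

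GREM1 acts on BMP ligands, so the shift of GREM1 from its control mean was set beside that of BMP4 in the same animal (brightest probes). GREM1 exceeded BMP4 by 1.29 to 2.44 on day 4 after 6.7 Gy (mean 1.88 ± 0.49 SD, n = 4) and by 1.52 to 2.53 after 7.4 Gy (mean 2.11 ± 0.46 SD, n = 4). In controls the same difference ran from -0.91 to 0.69. No animal of day 4 fell within the control range. On day 7 the difference was 0.56 to 1.39 after 6.7 Gy and 0.15 to 1.80 after 7.4 Gy, and on day 12 it was 0.35 to 0.51 and 0.78 to 1.20. These are differences between shifts of 2 probes, not levels, and were not tested. On day 4 the BMP4 probe used moved little, with means of 0.76 and 1.07 against 0.90 in controls, so there the difference mostly followed GREM1. After 7.4 Gy its mean was lower later, at 0.31 on day 7 and 0.33 on day 12, so BMP4 made up part of those differences too. The second BMP4 probe, which changed by 0.56 on day 4 after 7.4 Gy, was not used. It would make the day 4 difference at that dose smaller.

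**Figure D3:**
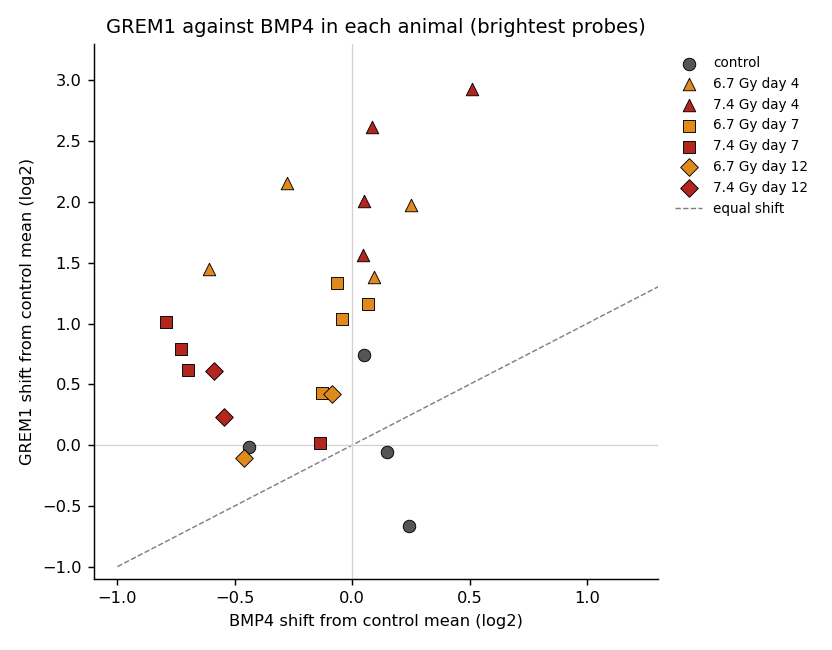
Shift of GREM1 (y axis) against shift of BMP4 (x axis) from the control mean in each animal, in log2 units with the brightest probe of each; the dashed line marks equal shifts. The day 4 animals lie 1.29 to 2.53 above the line, against -0.91 to 0.69 in controls.

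On day 7 none of the 14 probes was called at either dose, beside 0.319% of all probes after 6.7 Gy and 0.390% after 7.4 Gy in limma. At an unadjusted p under 0.05 there were 3 and 2 of the 14, beside 9.63% and 11% of all probes. At an unadjusted p these were both brighter GREM1 probes and the second BMP5 probe after 6.7 Gy, and the brighter BMP4 and second BMP5 probe after 7.4 Gy. GREM1 (first probe) still read above the control mean in every animal: 1.82, 2.72, 2.55 and 2.42 after 6.7 Gy and 2.18, 2.01, 1.40 and 2.40 after 7.4 Gy. Both groups overlapped the highest control, and the changes were 0.99 ± 0.32 and 0.61 ± 0.32 (SE, limma adjusted p = 0.239 and 0.5). RSPO3 (brighter probe) read -3.91 to -3.38 and -3.75 to -3.58, inside the control range, with changes of 0.12 and 0.14 (SE 0.28).

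BMP4 (brighter probe) read 0.17, 0.19, 0.76 and 0.10 on day 7 after 7.4 Gy, against 0.45 to 1.14 in controls. All but 1 of these animals lay below every control, and the change was -0.59 ± 0.19 (SE, limma adjusted p = 0.218). Its second probe changed by -0.16 ± 0.18. The second BMP5 probe (A_01_P008318) lay above all controls in both groups, at -3.37 to -2.74 after 6.7 Gy and -3.24 to -2.89 after 7.4 Gy against -4.11 to -3.44, with changes of 0.68 ± 0.28 and 0.74 ± 0.28 (SE, adjusted p = 0.411 and 0.293), whereas the brighter BMP5 probe changed by 0.06 and 0.12. RSPO1 read -1.05 in 1 animal after 7.4 Gy and -3.53 to -3.30 in the others.

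On day 12, with 2 animals per dose, none of the 14 probes was called, beside 0.0183% of all probes after 6.7 Gy and 0.0262% after 7.4 Gy in limma. At an unadjusted p under 0.05 there were 0 and 1, beside 7.11% and 6.87% of all probes. GREM1 (first probe) read 1.81 and 1.28 after 6.7 Gy and 1.62 and 2.0 after 7.4 Gy, within the control range. RSPO3 (brighter probe) read -4.11 and -3.95, and -4.02 and -3.64, also within it. GREM1 probe 3 read -3.86 and -3.44 after 6.7 Gy and -3.21 and -3.33 after 7.4 Gy, below every control, with changes of -0.92 ± 0.80 and -0.54 ± 0.80 (SE, limma adjusted p = 0.870 and 0.953). That SE also takes in the animal of day 7 after 7.4 Gy that read 1.55. RSPO1 read -3.53 and -3.77, and -3.55 and -3.54, also below every control, with changes of -0.56 ± 0.44 and -0.46 ± 0.44 (SE, limma adjusted p = 0.852 and 0.903). How many of all probes lay below every control with 2 animals per dose was not counted. The 1 probe under an unadjusted p of 0.05 was the brighter BMP4 probe after 7.4 Gy, at 0.35 and 0.31, a change of -0.57 ± 0.24 (SE, adjusted p = 0.660). WNT5A and the dimmer RSPO3 probe were not well above background on either array of day 12 after 7.4 Gy.

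**Figure D4:**
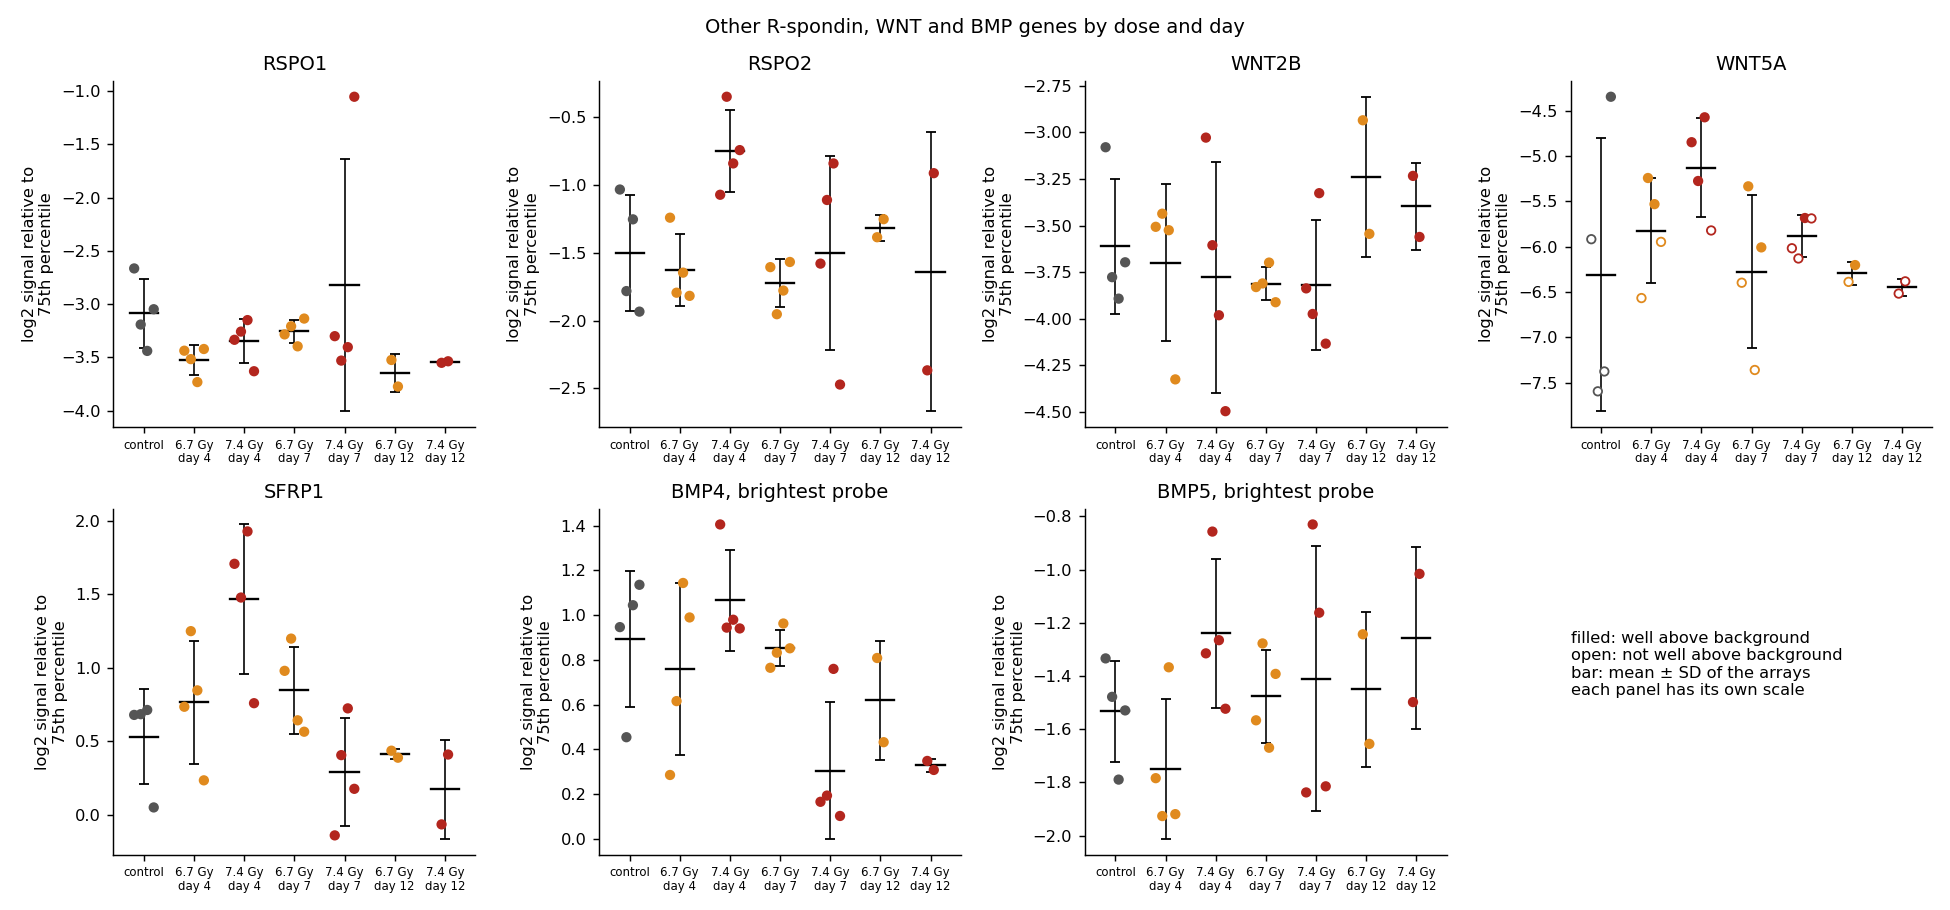
The other 7 genes by dose and day, each with its brightest probe; each point is 1 animal, the y axis is the log2 signal relative to the 75th percentile of the array with its own scale per panel, open points were not well above background, and bars are mean ± SD. SFRP1 after 7.4 Gy on day 4 reads 0.76 to 1.93 against 0.05 to 0.71 in controls, and the other panels overlap the controls on day 4.

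The time course was tested over both doses, with the mean of the doses on each day. From day 4 to day 7, 3 of the 14 probes fell and none rose, beside 4.44% of all probes called and 2.06% called lower. GREM1 fell by 1.21 (SE 0.23, limma adjusted p = 0.000821) with its first probe and by 1.40 (SE 0.20, adjusted p = 0.000108) with its second. All 8 animals of day 7 lay below all 8 of day 4 with both probes. RSPO3 (brighter probe) fell by 1.18 (SE 0.20, adjusted p = 0.000325), with overlap from the 1 low animal of day 4, and with normexp the change was -0.69, below 2-fold.

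From day 4 to day 12, 4 of the 14 probes fell, beside 6.51% of all probes called and 2.68% called lower. GREM1 fell by 1.72 (SE 0.28, limma adjusted p = 0.000285) and by 2.13 (SE 0.25, adjusted p = 2.1e-05) with its first and second probe, and RSPO3 (brighter probe) fell by 1.44 (SE 0.24, adjusted p = 0.00037). The 4 animals of day 12 lay below all 8 of day 4 with each of these. With normexp the RSPO3 change was -0.47 (adjusted p = 0.0497), below 2-fold, so that call was lost. All arrays of day 4 sat in positions 1 and 2 and all of days 7 and 12 in positions 3 and 4, so position and time cannot be told apart. The third GREM1 probe fell by 1.56 (SE 0.57, limma adjusted p = 0.0495), a call that 27 of 35 alternatives took away. Among them were leaving out any 1 array of day 4, of day 12 or of day 7 after 6.7 Gy. Where the call held, the limma adjusted p went as low as 8.97e-05. The SE pools all 7 groups, with the animal of day 7 after 7.4 Gy that read 1.55. SFRP1 changed by -0.83 (SE 0.22, adjusted p = 0.0116), below 2-fold. Between day 7 and day 12, none of the 14 was called, beside 0.118% of all probes, and 3 passed an unadjusted p of 0.05, beside 9.62%.

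For GREM1 (first probe) the order of the group means ran from 7.4 Gy day 4 (3.67 ± 0.61 SD) and 6.7 Gy day 4 (3.13 ± 0.38) to 6.7 Gy day 7 (2.38 ± 0.39), 7.4 Gy day 7 (2.0 ± 0.43), 7.4 Gy day 12 (1.81 ± 0.27), 6.7 Gy day 12 (1.54 ± 0.38) and control (1.39 ± 0.58). Neighbours in this order overlapped, apart from 6.7 Gy day 4 and 6.7 Gy day 7, whose animals did not. For RSPO3 (brighter probe) both day 4 groups, at -2.34 ± 0.27 and -2.64 ± 0.78 (SD), stood first, and the other 5 group means lay between -4.03 and -3.66.

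No member was called between the doses on day 4, day 7 or day 12, beside 0.00% of all probes in each. At an unadjusted p under 0.05 in limma there were 4, 2 and 0 of the 14, beside 6.18%, 1.86% and 3.64% of all probes. On day 4 these were RSPO2 (0.87 ± 0.32 SE higher after 7.4 Gy), the second BMP4 probe (0.66 ± 0.18), the brighter BMP5 probe (0.51 ± 0.22) and SFRP1 (0.70 ± 0.26), with limma adjusted p from 0.469 to 0.763. GREM1 (first probe) differed by 0.54, with a 95% interval from -0.13 to 1.21. RSPO3 (brighter probe) differed by 0.31, with an interval from -0.27 to 0.89. The change of the dose difference from day 4 to day 7 gave no call among the 14, beside 0.00262% of all probes, and 3 passed an unadjusted p of 0.05, beside 4.05%: both BMP4 probes (-0.86 ± 0.27 and -0.93 ± 0.25 SE) and SFRP1 (-1.26 ± 0.37), all with an adjusted p of 0.995.

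Within slides that held a control, the day 4 differences of GREM1 (first probe) were 1.24 to 1.40 on 2 slides after 6.7 Gy and 2.68 to 2.99 on 2 slides after 7.4 Gy. RSPO3 (brighter probe) differed by 0.52 to 0.82 and by 1.47 to 1.48 on the same slides, the 6.7 Gy values being under 2-fold. Array position 1, which held all controls and 2 animals of day 4 after 6.7 Gy, gave 1.80 for GREM1 and 1.56 for RSPO3. With position and scan day both as blocks, GREM1 after 7.4 Gy changed by 2.78 and 2.58 with its first and second probe, but at adjusted p of 0.0783 and 0.0601 in limma, so the calls were lost.

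Other genes of the same pathways, 84 in all, were read with 1 probe per gene. Of these, 4 were called on day 4 after 6.7 Gy and 11 after 7.4 Gy, beside 4.06% and 8.03% of the genes tested. No other WNT ligand (10 of 17 listed were tested), no WNT receptor (13 of 15) and no BMP receptor or SMAD protein (7 of 8) was called at either dose on day 4, and the median changes of these lists were -0.23, -0.10 and -0.11 after 6.7 Gy and -0.24, 0.33 and -0.36 after 7.4 Gy. Among RSPO4 and the R-spondin receptors, with all 6 genes tested, LGR6 alone was called, and it fell by 1.71 (SE 0.27, limma adjusted p = 0.00107) after 6.7 Gy and by 1.88 (SE 0.27, adjusted p = 0.000135) after 7.4 Gy on day 4. With array position as a block the 7.4 Gy change was -1.18 (adjusted p = 0.102), so that call was lost.

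**Figure D5:**
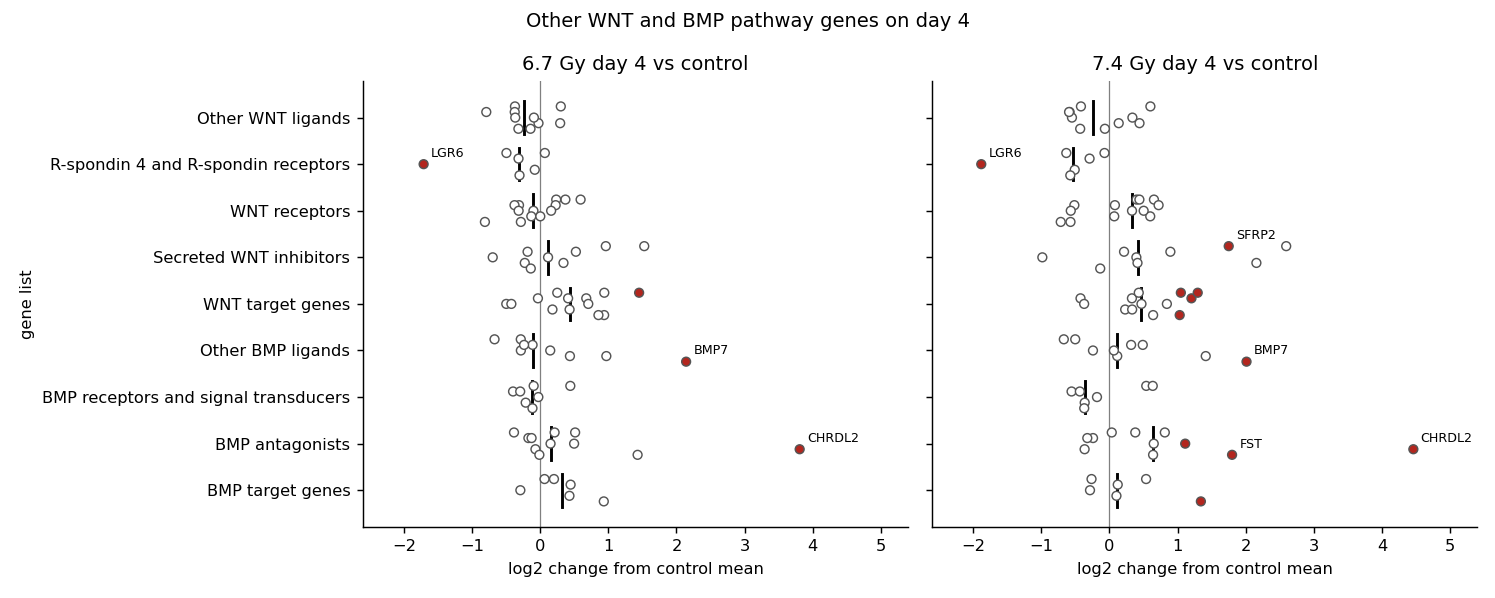
Log2 change from the control mean (x axis) of the other WNT and BMP pathway genes on day 4, 1 point per gene in its list (y axis); red points were called and the bars are list medians. CHRDL2 lies farthest to the right, at 3.81 after 6.7 Gy and 4.46 after 7.4 Gy, and LGR6 farthest to the left, at -1.71 and -1.88.

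The BMP antagonists besides GREM1 had 1 of 11 tested genes called higher after 6.7 Gy and 3 after 7.4 Gy, none lower, with list medians of 0.15 and 0.64. CHRDL2, a chordin-like protein that binds BMP ligands, rose 14.0-fold (log2 3.81, limma adjusted p = 0.00196) and 22-fold (4.46, adjusted p = 0.000158), and its other probes changed by 3.63 and 2.33 after 6.7 Gy and by 4.15 and 2.76 after 7.4 Gy. FST, follistatin, which binds activins and BMPs, changed by 1.43 (adjusted p = 0.0794) and rose by 1.8 (adjusted p = 0.0177), a call lost without replicate 3 of the 7.4 Gy group (1.56, adjusted p = 0.0595). CHRDL1 changed by 0.50 (adjusted p = 0.280) and rose by 1.11 (adjusted p = 0.00972), against 0.40 with normexp. Of 9 tested genes listed as other BMP ligands, 1 was called at each dose. The list also held BMP1 and INHBA, which are not BMP ligands. BMP7 rose by 2.14 (limma adjusted p = 0.00135) and by 2.01 (adjusted p = 0.000621), and its second probe changed by 1.98 and 1.99. The position and scan day blocks together took the 7.4 Gy calls of CHRDL2 and BMP7 away, at 5.25 (adjusted p = 0.0993) and 3.22 (adjusted p = 0.0522).

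Among the secreted WNT inhibitors besides SFRP1, 1 of 9 was called, after 7.4 Gy: SFRP2 rose by 1.75 (limma adjusted p = 0.013), against 0.96 (adjusted p = 0.199) after 6.7 Gy, and with array position as a block it was 1.39 (adjusted p = 0.332). DKK1, which binds the WNT co-receptor LRP6, changed by 2.59 (limma adjusted p = 0.0728) after 7.4 Gy. WIF1, which binds WNT ligands, changed by 2.16 (adjusted p = 0.0593). Neither was called. Both were singled out after their values were seen, and only their 7.4 Gy values are given. The list medians were 0.12 and 0.41.

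Of 13 tested target genes of WNT signalling, 1 was called higher after 6.7 Gy and 4 after 7.4 Gy. LEF1, a transcription factor that works with beta-catenin, rose by 1.45 (limma adjusted p = 0.00171) and by 1.3 (adjusted p = 0.00119). CCND1, cyclin D1, changed by 0.68 (adjusted p = 0.051) and rose by 1.2 (adjusted p = 0.000492), while its dimmer probe rose at both doses, by 1.05 and 1.4. ASCL2, a transcription factor of crypt stem cells, changed by 0.94 and rose by 1.05, and EPHB3, a receptor that keeps cells in place along the crypt, changed by 0.94 and rose by 1.03. ASCL2 and EPHB3 passed the 2-fold limit narrowly, ASCL2 losing the call without control replicate 2 (0.88) and EPHB3 without control replicate 1 (0.91), and array position as a block took the 7.4 Gy call of LEF1 away at 1.07 (adjusted p = 0.135). With position and scan day blocks together, LEF1 after 7.4 Gy was 0.49 (adjusted p = 0.740) and EPHB3 was 0.47 (adjusted p = 0.644), and LEF1 after 6.7 Gy was 1.14 (adjusted p = 0.0501). The EPHB3 call was lost under 8 of 43 alternatives and the ASCL2 call under 6 of 43. For ASCL2 these included normexp (0.93), a slide block (0.91) and a scan day block (0.86). With position and scan day blocks together ASCL2 was 1.03 (limma adjusted p = 0.435). The medians were 0.43 and 0.47. Of 6 tested BMP target genes, MSX1 alone was called, after 7.4 Gy (1.34, adjusted p = 0.0266), against 0.93 (adjusted p = 0.154) after 6.7 Gy, and the medians were 0.32 and 0.11. The MSX1 call was lost under 10 of 43 alternatives, among them leaving out control replicate 2 (1.06, adjusted p = 0.0884), control replicate 4 (1.18, 0.0794), or replicate 2 (1.3, 0.0522) or 3 (1.1, 0.0882) of the 7.4 Gy group.

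On day 7, 2 of these pathway genes were called after 6.7 Gy and 1 after 7.4 Gy, beside 0.387% and 0.468% of the genes tested. CHRDL2 rose by 3.56 after 6.7 Gy (limma adjusted p = 0.0233) and changed by 2.49 after 7.4 Gy (adjusted p = 0.0979). LGR6 fell by 1.3 (adjusted p = 0.0417) and by 1.43 (adjusted p = 0.0196). These day 7 calls were not stable to leaving out 1 array. The 6.7 Gy call of CHRDL2 was lost without control replicate 2 or 3 or without replicate 1, 3 or 4 of its own group, with adjusted p of 0.0519 to 0.0775. That of LGR6 was lost without any 1 control, with adjusted p of 0.0631 to 0.111, and under 22 of 41 alternatives in all. The 7.4 Gy call of LGR6 was lost without control replicate 4 (adjusted p = 0.0643) or replicate 1 (0.0618) or 4 (0.0983) of its own group. On day 12 no pathway gene was called, beside 0.0136% and 0.0204% of the genes tested, and LGR6 read 0.32 and 0.37 above control.

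The 3 genes whose levels were most like those of GREM1 over the 24 arrays, out of 13916 compared, were PLS3 (Pearson r = 0.92), an actin-bundling protein, CXCL3 (0.92), a chemokine that attracts neutrophils, and LAMC1 (0.91), a laminin chain of basement membranes. For RSPO3 they were TGFBR2 (0.93), a receptor of TGF-beta, PRKAR1A (0.93), a regulatory subunit of protein kinase A, and IFI16 (0.93), a DNA sensor. The arrays share groups, so these are descriptions of pattern.

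Cell type markers moved on the same day, beside the 4.06% and 8.03% of all genes called at the lower and the higher dose. Of 14 fibroblast genes tested, 1 was called higher on day 4 after 6.7 Gy (FOXF1, 1.0) and 4 after 7.4 Gy (COL1A2, 1.78, COL3A1, 1.0, FOXF1, 1.04, and F3, 1.13), with list medians of 0.38 and 0.80, and each of the 14 was above background on at least 1 array of every group. Their summed level was 222 to 411 in controls, 280 to 328 after 6.7 Gy and 357 to 469 after 7.4 Gy, in linear units of the signal. Of 10 colonocyte genes tested, 6 and 8 were called lower, with medians of -2.24 and -3.27, and their summed level was 498 to 807 in controls, 123 to 307 after 6.7 Gy and 47.4 to 252 after 7.4 Gy, each gene above background on at least 1 array of every group. Of the 6 smooth muscle genes tested none was called, with medians of -0.48 and 0.04. Markers of enteric neurons and glia (8 tested), T cells (7) and B cells (5) gave no call on day 4, endothelium (5) gave 1 higher and macrophages and neutrophils (6) gave 2 higher, after 7.4 Gy, and red blood cell genes (4) gave 2 and 1 lower. Of the 6 colon identity genes, 1 and 2 were called lower. The part of these shifts in the GREM1 and RSPO3 values was not tested.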

How the data were processed

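Colon RNA from 24 animals was hybridised to 24 one-colour Agilent rhesus macaque arrays, 1 per animal. Per the file headers, the authors scanned the arrays and extracted spot intensities with Agilent Feature Extraction 11.0.1.1, which subtracted background and removed spatial trends. The deposited series tables hold intensities of the same arrays and log2 values that the authors normalized from them. The intensity table gave the gene names, and the normalized values were used only as an alternative.

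Here the processed intensity of each spot was put on the log2 scale and set relative to the 75th percentile of its array. Control spots and outlier spots were left out, spots of a probe were averaged, and probes well above background on at least 2 arrays were kept, of which 38209 were fitted. limma 3.58.1 in R 4.3.3 fitted all 7 groups together (lmFit, eBayes), and p-values were adjusted by Benjamini-Hochberg over all probes of a comparison. Each gene of a list was read with its brightest probe. The fit and call rule were tested on simulated data. Each p-value sets a difference of group means against the spread of that probe between animals within groups. That spread is pooled over all 7 groups and drawn by eBayes toward that of the other probes. The number of arrays limits the precision.

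The members and gene lists were chosen with earlier results of these data known. Named were the members with all their probes, the pathway genes called in any comparison with control, and the 3 genes most like a called member. DKK1 and WIF1 were outside this rule and chosen after their values were seen. Alternatives covered background correction, scaling, the probe filter, slide, position, scan day and replicate blocks, the methods' t-test and leaving out each array. Chromosome positions and probe sequences were not used here.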

Additional observations from a re-analysis of the deposited data

Results flagged for a closer look

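In groups of 4 animals, a single animal lay far from the other animals of its group in 8 of 70 groups of member values, where chance gives about 1 in 20, or 3.5. RSPO1 read -1.05 in replicate 4 of day 7 after 7.4 Gy, against -3.53 to -3.30 in the others. In the same animal GREM1 probe 3 read 1.55, against -2.99 to -2.46, and the second BMP4 probe read -1.12, against -0.54 to -0.43. GREM1 probe 3 also stood high in replicate 2 of day 4 after 6.7 Gy, at -1.35 against -2.38 to -2.34.

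BMP4 (brighter probe) read 1.41 in replicate 1 of day 4 after 7.4 Gy, against 0.94 to 0.98, and 0.76 in replicate 3 of day 7 after 7.4 Gy, against 0.10 to 0.19. WNT2B read -4.33 in replicate 4 of day 4 after 6.7 Gy, against -3.53 to -3.44. SFRP1 read 0.051 in control replicate 4, against 0.68 to 0.71 in the other controls.

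Values differed between days, by a test of the difference itself over both doses in limma, where array position and time cannot be told apart. RSPO3 (brighter probe) changed by -1.18 from day 4 to day 7 and by -1.44 from day 4 to day 12, and with normexp by -0.69 and -0.47, both below 2-fold. GREM1 changed by -1.21 and -1.72 with its first probe and by -1.40 and -2.13 with its second. GREM1 probe 3 changed by -1.56 from day 4 to day 12, at a limma adjusted p of 0.0495, a call that 27 of 35 alternatives took away.

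A probe that the tables leave without a gene name, and describe only as similar to human WNT5A, was not counted as a member. It was well above background on all 24 arrays. On day 4 it read -2.64, -2.95, -2.31 and -3.38 in controls and -0.84, -1.99, -1.49 and -2.29 after 7.4 Gy, all of the latter above every control. After 6.7 Gy it read -2.32, -1.67, -1.85 and -2.05, with 1 animal inside the control range. The change after 7.4 Gy was 1.17 (limma adjusted p = 0.00489), which met the call rule, and over the 24 arrays its correlation with the WNT5A probe was 0.39.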

How the results depend on the processing

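GREM1 (first and second probe) kept its direction on day 4 under all 43 alternatives at each dose. Its calls after 6.7 Gy were lost only with the methods' t-test after adjustment, and those after 7.4 Gy only with position and scan day as blocks together. After 6.7 Gy, the number of member probes called on day 4 was 3, and 0 with the methods' t-test after adjustment. After 7.4 Gy it was 3, and 5 with spike-in scaling (RSPO2 and SFRP1 added), 5 with no minimum fold (BMP4 probe 2 and SFRP1 added) and 1 with position and scan day blocks (RSPO3 alone). From day 4 to day 12 it was 4, and 2 with normexp (both GREM1, RSPO3 lost). Leaving out 1 array gave 2 to 3 on day 4 after 6.7 Gy, 3 to 4 after 7.4 Gy, 3 to 3 from day 4 to day 7 and 3 to 4 from day 4 to day 12, and 0 in the other comparisons. Where that left 1 animal on day 12, it was assumed to vary like the other groups. WNT5A on day 4 after 7.4 Gy turned from 1.18 to -0.060 with normexp, and the cause was not tested. Spike-in scaling, which moved the median of all probes on day 4 from -0.07 to 0.15 and from -0.08 to 0.20, turned small lower values above 0: RSPO2, WNT2B, both BMP4 probes and BMP5 probe 1 after 6.7 Gy (0.00 to 0.13), and RSPO1 and WNT2B after 7.4 Gy (0.02 and 0.12). Quantile normalization did so for WNT2B after 6.7 Gy (0.01).

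Replicate numbers gave no sign of pairing. The 62 pairs of arrays with the same number had correlations of -0.23 to 0.24 (median 0.004). The 182 pairs with different numbers had -0.28 to 0.33 (median -0.002). Of the 24 arrays, 8 correlated best with their own number. With a replicate block, 3 and 3 member probes were called on day 4, 3 from day 4 to day 7 and 3 from day 4 to day 12, 0 in the others, and 67 probes of the whole array on day 7 after 6.7 Gy and 1 on day 12 after 7.4 Gy. Over the whole array, 1378 and 2688 probes were called on day 4, with 487 to 3710 and 528 to 7622 under other processing, 122 and 149 on day 7, with 2 to 707 and 2 to 681, and 7 and 10 on day 12, with 0 to 434 and 0 to 421. Pathway genes called on day 4 numbered 2 to 10 and 4 to 25 under other processing. Position could not be used as a block for day 7 or day 12 against control or against day 4. Arrays of those days shared no position with any array of the controls or of day 4. For day 4 after 7.4 Gy against control, the block rested on day 4 after 6.7 Gy, whose arrays sat in positions 1 and 2. The probe named WNT5A and the dimmer RSPO3 probe lay too near background for their changes to be measured well, and day 12 had 2 animals per dose.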
